A study of Mus musculus with 3 samples.

Results

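A set of 10 genes that answer to FOXO factors, glucocorticoids, metal ions or growth signals was followed in skeletal muscle of mice with and without the lysine methyltransferase gene Mettl21c. They are Foxo1, Foxo3, Foxo4, Klf15, Mstn, Ddit4, Eif4ebp1, Cdkn1a, Mt1 and Mt2. The members were every non-control array probe whose RefSeq accession maps to one of these symbols. All 10 genes were on the array, among 21613 gene symbols, with 13 of its 55681 probes and 22 of its 59305 spots. Each of 3 two-colour Agilent arrays carried RNA of the SOL muscle (read here as soleus, a slow postural muscle) of male C57BL/6 mice 8 weeks old on a regular chow diet. The 3 WT samples were wildtype and labelled with Cy3, and the 3 KO samples were Mettl21cLacZ/LacZ and labelled with Cy5, 1 of each on every array. No array had the dyes swapped, so genotype and dye cannot be told apart. The allele is carried by the whole animal, and the labels call the arrays biological replicates without saying whether a sample came from 1 animal or from a pool, so the p-values measure the spread between these samples only.

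FOXO transcription factors are held out of the nucleus when insulin and growth factors activate AKT, and in fasting or disuse they enter it and switch on ubiquitin ligase and autophagy genes of muscle. Glucocorticoids act through a nuclear receptor that binds DNA next to many of the same genes, among them the transcription factor gene Klf15 and Ddit4 (also called REDD1), whose protein restrains the growth kinase complex mTORC1. Metallothioneins, the small metal-binding proteins encoded by Mt1 and Mt2, are induced by zinc through the factor MTF1 and by glucocorticoids, and both rise in wasting muscle.

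The promoter sequence of the 3 genes whose KO over WT ratio varied most between arrays is shown with the matches to elements known to answer to metal and glucocorticoids. The 250 bases before the RefSeq start of each gene (build GRCm38.p6) were searched on both strands for the FOXO binding element GTAAACA, for the glucocorticoid response element (GNACA and TGTNC with 3 bases between them) and for the metal response element cores TGCACNC and TGCGCNC, none of whose matches here overlapped another. Capitals mark the matches, and sequences run 5′ to 3′ on the strand of the gene. The Mt1 window lies at chr8:94178839-94179088 (plus strand), the Mt2 window at chr8:94172368-94172617 (plus strand) and the Ddit4 window at chr10:59951771-59952020 (minus strand).
Mt1: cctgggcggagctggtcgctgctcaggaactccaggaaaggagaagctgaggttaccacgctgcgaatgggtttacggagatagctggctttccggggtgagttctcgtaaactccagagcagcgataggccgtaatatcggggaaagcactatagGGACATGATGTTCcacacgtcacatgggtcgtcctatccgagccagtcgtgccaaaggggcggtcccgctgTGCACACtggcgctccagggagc
Mt2: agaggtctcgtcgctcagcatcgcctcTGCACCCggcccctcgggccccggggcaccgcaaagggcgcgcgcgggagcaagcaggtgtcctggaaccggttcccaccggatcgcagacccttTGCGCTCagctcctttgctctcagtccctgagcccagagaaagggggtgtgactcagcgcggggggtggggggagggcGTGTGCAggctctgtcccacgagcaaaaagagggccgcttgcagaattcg
Ddit4: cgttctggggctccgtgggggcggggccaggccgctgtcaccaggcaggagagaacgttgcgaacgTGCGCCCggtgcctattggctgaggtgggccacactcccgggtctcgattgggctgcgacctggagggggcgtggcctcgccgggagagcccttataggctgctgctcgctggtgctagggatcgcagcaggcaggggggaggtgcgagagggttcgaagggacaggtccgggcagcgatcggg

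Within its window Mt1 held 1 glucocorticoid response element, at -94 to -82 from the RefSeq start, and 1 metal response core at -23 to -17. Bases on either side of the windows were not searched, so the counts leave out any element there. Mt2 held 3 metal response cores, at -223 to -217, -128 to -122 and -50 to -44, and Ddit4 held 1, at -184 to -178. Of the 8 members with a window in the RefSeq table, in 9 windows, Klf15 and Foxo3 also held 1 metal response core each, Foxo1, Mstn and Cdkn1a held no match, and no window held the FOXO binding element. Among 32851 promoter windows of this length, 0.387% held the glucocorticoid response element, 21.4% a metal response core and 3.17% the FOXO binding element, so a single metal response core is common. Mt1 and Mt2 lie next to each other, with starts 6471 bases apart. Their windows, aligned end to end with gaps, matched at 146 of 304 aligned positions, and no other pair of windows was aligned for comparison. A match describes the letters and shows no binding.

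The targeted gene was measured first as a check on the labels. The Mettl21c probe gave processed signals (background-subtracted and dye-normalised by the scanner software, arbitrary units) of 7527, 3677 and 4486 in the WT samples of arrays 1 to 3 and of 200.4, 32.3 and 45.4 in the KO samples, where it was well above background on 1 of 3 arrays. The groups did not overlap, and the mean log2 ratio of KO over WT was −2.45 ± 0.48 (SD, n = 3 arrays; limma adjusted p = 0.0175) after background correction with an offset and loess, which shrinks ratios toward 0, and −6.23 ± 0.87 from processed signals. Where this probe lies against the altered part of the allele is not given in the sources used here. The share of spots well above background ranged from 20.4% to 23.6% over the 6 channels, and precision is limited by having 3 arrays. Of 13 genes that define soleus or skeletal muscle, 10 were well above background in all 6 channels. The other 3, Ckm, Tnni1 and Myh7, had no probe that was both free of outlier flags and well above background throughout. Which of these conditions failed was not examined.

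Array 3 stood apart from the other arrays by position, before any ratio was formed. Over all spots, with controls included here and in the blocks below, the log2 WT signals correlated at 0.95 between arrays 1 and 2. They correlated at 0.749 between arrays 1 and 3 and at 0.751 between arrays 2 and 3. In columns 1 to 40 of the lower rows (193 to 384) the correlation of arrays 1 and 3 was 0.352, and there the signal on array 3 correlated at 0.369 with the spot 1 row above on array 1. In columns 121 to 164 the correlation of arrays 1 and 3 was 0.922 in the upper rows and 0.912 in the lower rows, with −0.004 and 0.02 for the spot above. In the WT channel arrays 1 and 2 had correlations of 0.938 to 0.962 in these blocks, and array 2 against the spot above on array 1 gave −0.017 to 0.011. In the KO channel arrays 1 and 2 correlated at 0.863 and 0.879 in columns 81 to 120, where arrays 1 and 3 correlated at 0.932 in the upper and 0.801 in the lower rows. The Mt2 spot and some Cdkn1a spots lie in those columns. The tested Cdkn1a probe, which has 10 spots, shows it directly. Its WT signals ranged over 1009 to 1237 on array 1 and 459.9 to 662.1 on array 2, but over 22.9 to 715 on array 3. The 3 spots in columns 1 to 80 gave 22.9 to 65.7 there, and the other 7 gave 375 to 715. Values are therefore given per array, with and without array 3, and the cause was not tested.

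**Figure D1:**
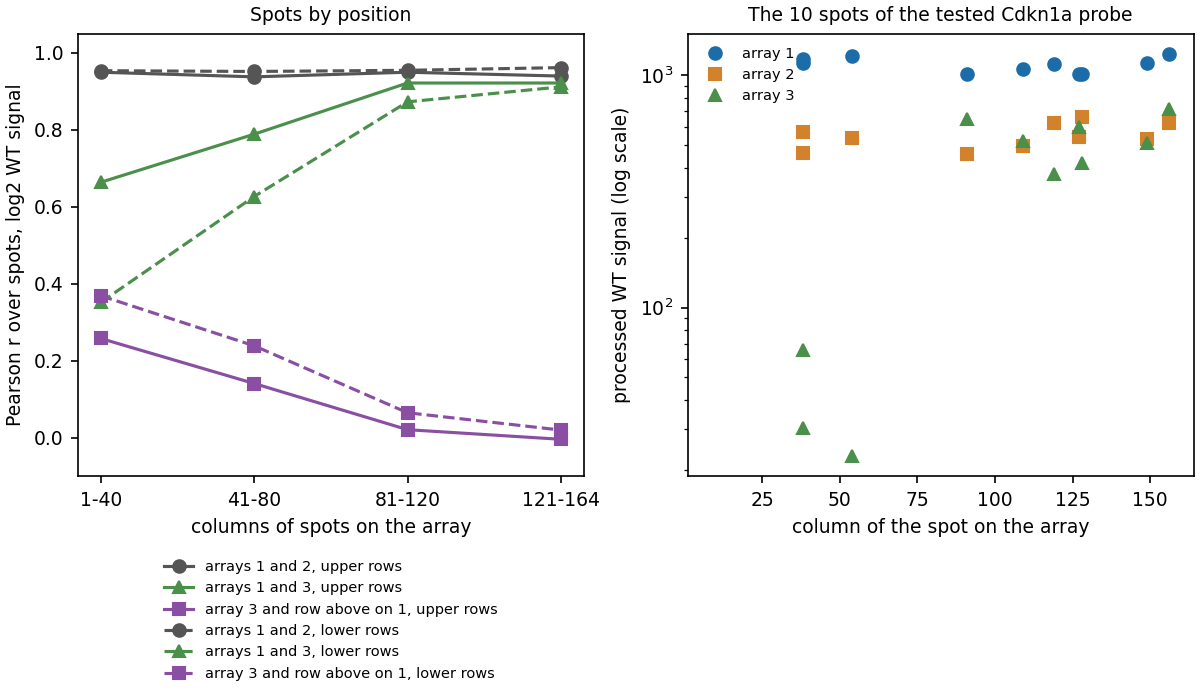
Left, Pearson correlation over spots of the log2 WT signal by column block, for upper and lower rows. Arrays 1 and 2 stay at 0.938 or above, arrays 1 and 3 drop to 0.352 in columns 1-40 of the lower rows, and array 3 against the spot 1 row above on array 1 goes up to 0.369 there. Right, processed WT signal (log scale) of the 10 spots of the Cdkn1a probe against their column, with the 3 low spots of array 3 in columns 1 to 80.

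Of the 10 genes, 6 passed the filter on dim probes and were tested: Foxo1, Ddit4, Eif4ebp1, Cdkn1a, Mt1 and Mt2. In all 7424 entries were tested, called genes here. Of these 5776 were gene symbols, and the rest were probe targets with no matched symbol. None of the 6 was called at an adjusted p under 0.05 by limma, where the background was 3 of 7424 tested genes (0.0404%), and none had an unadjusted p under 0.05, where the background was 997 genes (13.4%). The same sign on all 3 arrays was seen for 1 of the 6, Cdkn1a, against 35.8% of all tested genes. The 3 genes called in all were lower in KO. Centring the arrays without loess called 1014 genes higher and 1644 lower instead, and then 1 member, Eif4ebp1. With no filter on dim probes all 10 members entered, and 0 had an adjusted or an unadjusted p under 0.05. In that fit 0 of all 36218 genes were called, and 2468 (6.81%) had an unadjusted limma p under 0.05. What set some members apart was not a mean difference but the spread between arrays. Of the 7424 tested genes, the SD of the log2 ratio of Mt2 was the 2nd largest. That of Mt1 was the 21st and that of Ddit4 the 24th, after the offset and loess. These ranks are percentiles 99.97, 99.72 and 99.68. The offset understates the ratios of dim genes, so the ranks depend on brightness. From processed signals the SDs of Mt2, Mt1 and Ddit4 were at the lower percentiles 99.34, 95.74 and 96.93.

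**Figure D2:**
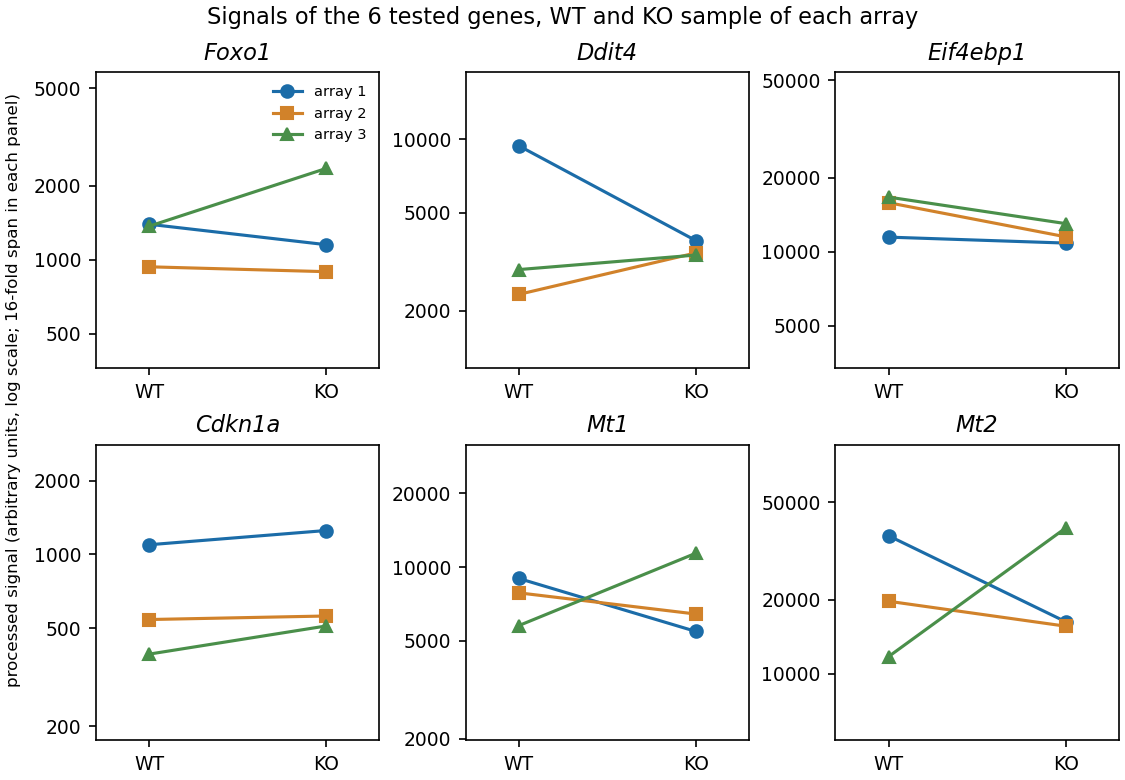
Processed signal (arbitrary units, log scale, 16-fold span in each panel) of the WT and KO sample of each array for the 6 tested genes, with a line joining the 2 samples that shared an array. The lines of Mt1 and Mt2 on array 3 cross those of arrays 1 and 2, and the WT sample of array 1 stands above the other 5 samples for Ddit4.

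Among the FOXO genes, the factor Foxo1 was the one measured. Its brighter probe gave processed signals of 1396.5, 937 and 1370 in WT and 1153, 895 and 2355 in KO on arrays 1 to 3. The groups overlapped, with the KO sample of array 3 the highest of the 6 and the other 5 between 895 and 1396.5. The log2 ratios were −0.17, −0.07 and 0.07, with a mean of −0.06 ± 0.12 (SD, n = 3; 95% interval −0.24 to 0.13; limma adjusted p = 0.808). From processed signals the array 3 ratio was 0.78 and the mean 0.15 ± 0.56, so the sign of the mean turned, and without array 3 the mean after loess was −0.12. A second probe gave 539, 525 and 323 in WT and 572, 573 and 475 in KO, with a mean log2 ratio of 0.02 ± 0.13, or 0.26 ± 0.26 from processed signals. The brighter probe lies in column 47 of row 351 and the second in column 135. On array 3 the spot below the brighter probe read 1235 in WT and 1944 in KO, while that spot read 22.4 and 24.8 in WT on arrays 1 and 2.

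Foxo3 and Foxo4, the other FOXO factors, were near background. The Foxo3 probe gave 21.6, 25.7 and 36.5 in WT and 20.4, 23.5 and 25.0 in KO and was well above background in no sample. One Foxo4 probe gave 23.4 to 24.7 in WT and 22.6 to 28.1 in KO, also never above background. The other Foxo4 probe read 20.9 and 22.8 in WT and 21.8 and 22.5 in KO on arrays 1 and 2, but 2960 in WT and 1114 in KO on array 3. That probe lies in column 125 of row 354, in a block where arrays 1 and 3 correlated at 0.912. On arrays 1 and 2 the spot 1 row above it read 2090 and 2056 in WT and 1155 and 1684 in KO. Foxo3 and Foxo4 entered a test only in the fit with no filter on dim probes.

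Klf15, a transcription factor gene that glucocorticoids switch on and that drives branched-chain amino acid breakdown, was not well above background in any sample. Its signals were 21.9, 25.3 and 47.7 in WT and 48.1, 28.8 and 76.0 in KO. The KO sample was the higher on each array, but all values were too dim for a ratio to be given weight. Mstn encodes myostatin, the secreted inhibitor of muscle growth. Its probe read 23.1 and 25.0 in WT and 21.9 and 25.4 in KO on arrays 1 and 2, and 1232 in WT and 1979 in KO on array 3. It lies in column 5 of row 302, inside the block where array 3 followed the row above, and the spot above it read 673 in WT on array 1 and 651.5 on array 2. On array 3 that spot above read 96.8 in WT. The Mstn spot was thus bright on array 3 alone, and the part of neighbouring spots in its value was not tested. Mstn entered a test only in the fit with no filter on dim probes.

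Ddit4, the stress- and glucocorticoid-induced brake on mTORC1, was high in a single sample. Its signals were 9389.6, 2330.1 and 2940 in WT and 3860, 3438 and 3370 in KO. The WT sample of array 1 was the highest of the 6 and the WT sample of array 2 the lowest, so the KO values lay inside the WT range. The highest WT sample was 4.03 times the lowest, against 1.15 times among the KO samples. The log2 ratios were −1.14, 0.28 and 0.04, with a mean of −0.27 ± 0.76 (95% interval −0.86 to 0.32; limma adjusted p = 0.697). Leaving out array 1 turned the mean to 0.16, and leaving out array 3 gave −0.43. Its SD compares with a median of 0.169 among genes of like brightness. The Ddit4 spot lies in column 59, and on array 3 the spot below it read 2697 in WT and 2585 in KO, against 20.9 and 25.6 in WT on arrays 1 and 2.

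Eif4ebp1 encodes 4E-BP1, the repressor of translation initiation that mTORC1 inactivates. Its signals were 11481, 15856 and 16711 in WT and 10859, 11516 and 13035 in KO. The KO sample was the lower on every array, while the groups overlapped, since the WT sample of array 1 lay inside the KO range. From these signals the log2 ratio was −0.30 ± 0.20 (n = 3; 95% interval −0.65 to 0.05; limma adjusted p = 0.498, over alternatives 0.0145 to 1). After loess over all spots it was 0.12, −0.13 and 0.04, with a mean of 0.01 ± 0.13 (95% interval −0.17 to 0.19; limma adjusted p = 0.972). Genes of its brightness (average log2 intensity 10 to 12, 355 genes) had a median ratio of 0.19 after that loess and of 0.01 from processed signals. With loess fitted on spots well above background in both channels, chosen after seeing this, the mean of Eif4ebp1 was −0.13 ± 0.17 (limma adjusted p = 0.618), and without array 3 the mean after loess over all spots was −0.0056. Centring without loess gave −0.56 with an adjusted p of 0.0145. The sign of Eif4ebp1 turned in 11 of 20 alternatives, from a main mean close to 0. It turned with other scalings and also, under the same loess, without array 1 (−0.047) or array 3. The cause was not tested.

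Cdkn1a encodes the cell cycle inhibitor p21, a target of p53 and of FOXO factors. The mean of its spots without an outlier flag was 1095, 543 and 393 in WT and 1252, 562 and 511 in KO. The KO mean was the higher on every array. On array 2 the ratio was positive in 3 of 3 unflagged spots of columns 1 to 80 and in 2 of 6 beyond. The highest over lowest sample was 2.79 in WT and 2.45 in KO. The lowest, array 3, takes in the 3 low spots of columns 1 to 80. In columns 81 on, WT spots read 1009 to 1237, 459.9 to 662.1 and 375 to 715 on arrays 1 to 3. The log2 ratios were 0.03, 0.03 and 0.13, with a mean of 0.06 ± 0.06 (95% interval −0.10 to 0.22; limma adjusted p = 0.761), and processed signals gave 0.21 ± 0.17. Of the 10 spots, 7 were well above background in WT and 8 in KO on array 3, and all 10 in both channels of arrays 1 and 2. Without array 3 the mean log2 ratio was 0.03. A second Cdkn1a probe, for another transcript, read 21.5 to 25.4 in WT and 28.2 to 46.4 in KO and was never well above background.

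**Figure D3:**
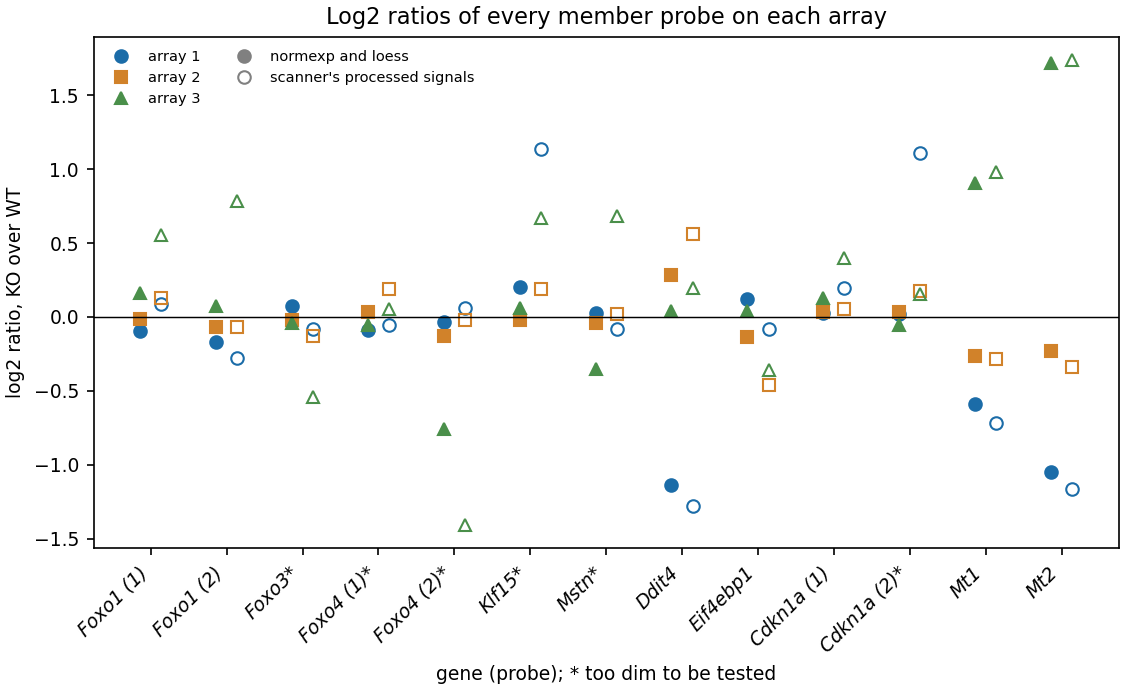
Log2 ratio of KO over WT on each array for all 13 probes, after normexp and loess (filled) and from the scanner's processed signals (open). An asterisk marks probes too dim to be tested, and numbers in brackets tell probes of 1 gene apart. The widest points are those of Mt2, from −1.05 to 1.72.

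The metallothionein genes gave opposite ratios on different arrays. Mt1 signals were 8985, 7851 and 5774 in WT and 5468, 6437 and 11381 in KO. Mt2 signals were 36523, 19760 and 11758 in WT and 16313, 15643 and 39261 in KO. In WT both genes were highest on array 1 and lowest on array 3. In KO both were highest on array 3, with array 2 above array 1 for Mt1 and just below it for Mt2, and for both genes the WT and KO groups overlapped.

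The log2 ratios of Mt1 were −0.59, −0.26 and 0.91, with a mean of 0.02 ± 0.79 (95% interval −0.60 to 0.63; limma adjusted p = 0.987). Those of Mt2 were −1.05, −0.23 and 1.72, with a mean of 0.15 ± 1.42 (95% interval −0.94 to 1.23; limma adjusted p = 0.926). Both were lower in KO on arrays 1 and 2 and higher on array 3. The median SD of all tested genes was 0.12, and it was 0.177 both for genes as bright as Mt1 and for genes as bright as Mt2. From processed signals the SDs were 0.88 for Mt1 and 1.495 for Mt2, at percentiles 95.7 and 99.3 of all tested genes, with 96.9 for Ddit4.

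Without array 3 the mean log2 ratio was −0.43 for Mt1 (unadjusted p = 0.00407, limma adjusted p = 0.141, over alternatives 0.141 to 1) and −0.64 for Mt2 (unadjusted p = 0.0112, limma adjusted p = 0.204, over alternatives 0.204 to 1). These rest on 2 arrays, and neither passed the adjusted threshold. In that fit 2 of the 6 members and 1320 of 9620 genes (13.7%) had an unadjusted limma p under 0.05. Mt1 lies in column 51 of row 54, where array 3 is less alike, and Mt2 in column 81 of row 335. On array 1 the spot above read 412.8 in WT for Mt1 and 21.1 for Mt2. The spot below Mt1 read 129, 134 and 92.2 in WT on arrays 1 to 3. The spot below Mt2 is bright and read 29260, 18230 and 9612 in WT and 18690, 8837 and 24640 in KO, so it too was lower in KO on arrays 1 and 2 and higher on array 3. The part of neighbouring spots in the array 3 values was not tested.

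Fibroblast and tendon markers had list medians below 0 on arrays 1 and 2 and above 0 on array 3, the signs that Mt1 and Mt2 had. The median log2 ratio of the 7 tested of 10 listed was −0.40, −0.31 and 0.25. Macrophage and leukocyte markers had the same signs (−0.31, −0.27 and 0.04), and so did FOXO regulators (−0.03, −0.13 and 0.13), FOXO target genes (−0.0041, −0.05 and 0.02) and all 7424 tested genes (−0.01, −0.02 and 0.02). The summed processed signal of the fibroblast and tendon markers was 32740, 24050 and 16070 in WT and 24650, 19180 and 20260 in KO. In WT it was highest on array 1 and lowest on array 3, as for Mt1 and Mt2, but in KO it was highest on array 1, where Mt1 and Mt2 were highest on array 3. Of this list 1 gene was never above background, and the mean ratio was positive for 3 and negative for 4 of the 7. Their part in the metallothionein ratios was not tested. In whole muscle, fewer cells of a type and less RNA per cell cannot be told apart.

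**Figure D4:**
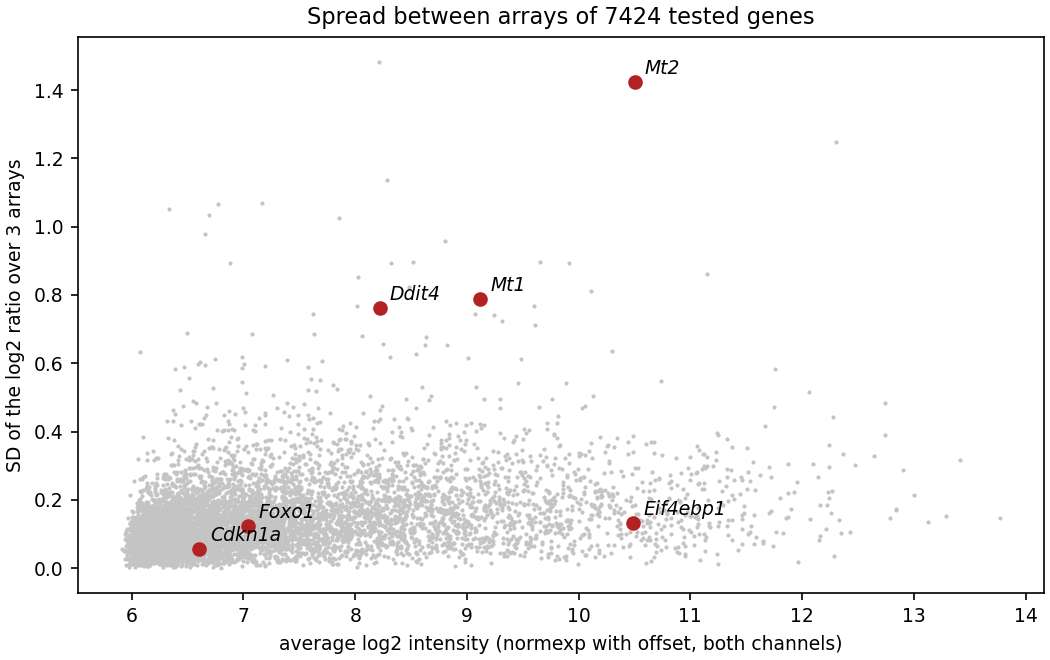
SD of the log2 ratio over the 3 arrays against average log2 intensity for the 7424 tested genes (grey), with the 6 tested members in red. Mt2 (1.42), Mt1 (0.79) and Ddit4 (0.76) stand above the cloud, whose median is 0.12. The ratios are those after the offset and loess, and the offset understates the ratios of dim genes. From processed signals the SDs of these genes were at percentiles 99.34, 95.74 and 96.93.

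Genes of the same pathways were described from 9 lists chosen with earlier results known. In none of the lists was a gene called in either direction at an adjusted p under 0.05. Of all 7424 tested genes 3647 had a mean ratio above 0 and 3777 one below 0, with a median log2 ratio of −0.0027, and 438 (5.9%) were higher and 559 (7.53%) lower at an unadjusted p under 0.05. The counts in the lists are read against these shares.

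Of 15 regulators of FOXO factors 8 were tested, 4 with a positive and 4 with a negative mean and a median log2 ratio of −0.02, and none reached an unadjusted p under 0.05. Akt2, a kinase that phosphorylates FOXO factors in insulin-responsive tissue, had ratios of −0.23, −0.25 and −0.02 with a mean of −0.16 ± 0.12 (limma adjusted p = 0.412). Usp7, a deubiquitinase that acts on FOXO4 in human cells, had ratios of 0.08, 0.08 and 0.47 with a mean of 0.21 ± 0.23. The mean was 0.08 without array 3 and turned to −0.05 on centring without loess.

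Of 24 FOXO target genes of muscle 18 were tested, 7 positive and 11 negative, with a median of −0.02 (−0.07 with loess on bright spots), and 2 higher and 2 lower at an unadjusted p under 0.05. The mitophagy receptor gene Bnip3 had ratios of 0.55, 0.84 and 0.72 with a mean of 0.70 ± 0.15 (95% interval 0.51 to 0.90; limma adjusted p = 0.0587). It is among the brightest genes, and the 35 genes of average log2 intensity above 12 had a median ratio of 0.34 in the same fit. Its mean was 0.19 with loess on bright spots, 0.10 from processed signals and −0.24 on centring without loess. Its size thus varied with the scaling, while its sign turned in 1 of 20 alternatives, the centring without loess. These values are of its brightest probe, and averaging its tested probes gave a mean of 0.39 (limma adjusted p = 0.107). The spread of adjusted p for Bnip3 over alternatives was 0.0159 to 1. Trim63, which encodes the ubiquitin ligase MuRF1, had ratios of −0.22, −0.23 and −0.38 with a mean of −0.28 ± 0.08 (limma adjusted p = 0.175).

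Of 20 genes for the glucocorticoid receptor and its responses 14 were tested, 8 positive and 6 negative, with a median of 0.01, and 1 was higher and 0 lower at an unadjusted p under 0.05. That gene was Dusp1, a phosphatase of MAP kinases, with ratios of −0.01, 0.37 and 0.69 and a mean of 0.35 ± 0.35 (limma adjusted p = 0.315), or 0.18 without array 3. Errfi1, a feedback inhibitor of the EGF receptor, had a mean of −0.18 ± 0.34 that rested on array 1 (−0.58) and was 0.015 without it.

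Of 18 KLF15 target and branched-chain amino acid genes 13 were tested, 5 positive and 8 negative, with a median of −0.0085, and 2 were higher and 2 lower at an unadjusted p under 0.05. Bckdk, the kinase that turns off the branched-chain ketoacid dehydrogenase, had ratios of −0.33, −0.45 and −0.60 with a mean of −0.46 ± 0.13 (95% interval −0.64 to −0.27; limma adjusted p = 0.0883). Bckdha, a subunit of that dehydrogenase, had ratios of 0.23, 0.31 and 0.50 with a mean of 0.35 ± 0.14 (limma adjusted p = 0.139), which turned to −0.05 on centring without loess. Bckdk kept its sign under each alternative run, with means from −0.70 to −0.33 and adjusted p from 0.0126 to 1, and was called with robust trended moderation (adjusted p = 0.0407) and on centring without loess (adjusted p = 0.0126).

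Of 22 genes of myostatin and activin signalling 6 were tested, 5 positive and 1 negative, with a median of 0.05, and none reached an unadjusted p under 0.05. The co-repressor gene Ski had a mean of 0.16 ± 0.08 (limma adjusted p = 0.396). Fstl1, a secreted follistatin-like protein, had a mean of 0.24 ± 0.41 that rested on array 3 (0.71), was 0.0041 without it and turned to −0.23 on centring without loess.

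Of 29 insulin, IGF and mTORC1 growth control genes 15 were tested, 6 positive and 9 negative, with a median of −0.01, and 2 were higher and 1 lower at an unadjusted p under 0.05. Mlst8, a subunit of both mTOR complexes, had ratios of −0.06, −0.37 and −0.38 with a mean of −0.27 ± 0.19 (limma adjusted p = 0.270). Pdpk1, the kinase upstream of AKT, had ratios of 0.40, 0.30 and 0.07 with a mean of 0.26 ± 0.17 (limma adjusted p = 0.270).

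Of 24 p53 targets and CDK inhibitors 10 were tested, 5 positive and 5 negative, with a median of −0.01, and none reached an unadjusted p under 0.05. Btg2, an antiproliferative p53 target, had a mean of 0.15 ± 0.07 and Ccng1, which encodes cyclin G1, of −0.18 ± 0.25. The Ccng1 mean was −0.07 without array 3 and −0.32 without array 2. Of 14 immediate early genes 5 were tested, 2 positive and 3 negative, with a median of −0.09 and 1 (Dusp1) higher at an unadjusted p under 0.05. Jun, a subunit of the AP-1 factor, had a mean of −0.17 ± 0.13.

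Of 18 genes of metal handling and oxidative stress other than the 2 metallothioneins, 10 were tested, 3 positive and 7 negative, with a median of −0.09, and 1 was higher and 0 lower at an unadjusted p under 0.05. That gene was Fth1, the ferritin heavy chain, with a mean of 0.20 ± 0.10 (limma adjusted p = 0.302) that was 0.06 with loess on bright spots and −0.37 on centring without loess. The zinc transporter gene Slc39a1 had ratios of −0.05, −0.20 and −0.13 with a mean of −0.13 ± 0.08 (limma adjusted p = 0.491). The list medians on arrays 1 to 3 were −0.08, −0.0019 and −0.04.

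**Figure D5:**
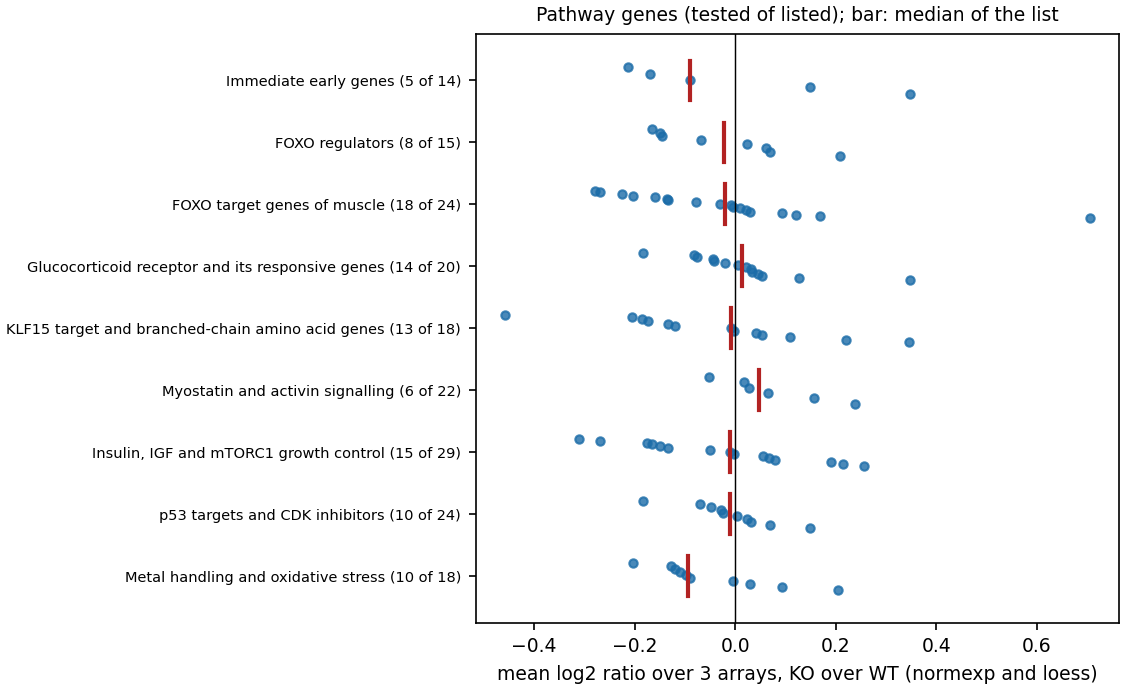
Mean log2 ratio of KO over WT over 3 arrays for each tested gene of the 9 pathway lists (dots), with the list median as a bar and the number tested of the number listed in brackets. List medians lie between −0.09 and 0.05, and the farthest dot to the right is Bnip3 at 0.70.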

How the data were processed

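Each scanner file, as deposited by the authors, holds spot intensity values in both channels, local background and flags. Per the file headers the software was Feature Extraction, version 12.0.3.1. Version 11.5 is given in the submitters' processing notes. The deposited log10 ratio of KO over WT comes from processed signals, background-subtracted and dye-normalised per the file headers. The value table holds the same log10 ratios to within 0.005, with column medians of 0.

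Here, median spot intensities were corrected with normexp (offset 50) and loess in limma 3.58.1 (R 4.3.3). Control and outlier-flagged spots were left out, spots of a probe averaged, and probes kept if well above background on all 3 arrays in 1 channel. The brightest probe stood for a gene. The log2 ratio was tested against 0 with eBayes and Benjamini-Hochberg adjustment over 7424 genes, two-sided. Of 29472 probes with a RefSeq accession, 28664 matched the RefSeq table. Named were all members, Mettl21c and, from each of 9 pathway lists, the 2 tested non-members of smallest unadjusted p. There were also 7 marker lists. Members and lists were chosen with earlier results of these data known. Array ratios pair the 2 samples of an array. Fits were tested on simulated data. There 71 of 100 genes set at a log2 ratio of 1 in size were called, and 95 of 98 set at 2. Their median fitted sizes were 0.512 and 0.929. Another 29 calls were false, in a step of 10657 genes, more than the 7424 of the data. All arrays lie on 1 slide. No search was run for genes with ratios like those of the members, since 3 ratios are too few. Only list medians and summed marker signals were set beside Mt1 and Mt2. No sequence of a probe or protein was used here.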

Additional observations from a re-analysis of the deposited data

How the results depend on the processing

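The call for the 6 tested members stayed at 0 under each alternative run except centring without loess, which called 1 (Eif4ebp1). The count of genes called, 3, became 25 with an offset of 16, 5 without background subtraction, 0 with processed signals or the value table, 2658 (50.1% at an unadjusted p under 0.05, against 13.4%) on centring without loess, 0 with no filter on dim probes, 0 with the filter in both channels, 1 with flagged spots kept, with mean probes or with each probe tested, 85 (41 higher, 44 lower) with robust trended moderation, and 62 (45 higher, 17 lower) with array weights. Without 1 array it ranged from 0 to 16. Dropping array 1 gave 9, dropping array 2 gave 16 and dropping array 3 gave 0. Without the replicate block, with the 6 channels as separate samples, it was 0, with 236 genes at an unadjusted p under 0.05, and Mettl21c stood at −2.45 with an adjusted p of 0.752. The ratio of Mettl21c also missed the threshold from processed signals (−6.23, adjusted p = 0.068), from the value table (−6.22), with no filter (−2.45, adjusted p = 0.172) and without array 3 (−2.44, adjusted p = 0.0557). Over arrays left out it ranged from −2.69 to −2.21.

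Signs turned as follows. For Foxo1 the mean log2 ratio was 0.15 from processed signals and 0.15 from the value table, and 0.0028 without array 1, with a range over arrays left out of −0.12 to 0.0028. Ddit4 was 0.16 without array 1, and its range over arrays left out was −0.55 to 0.16. Eif4ebp1 was −0.058 with offset 16, −0.082 without background subtraction, −0.30 from processed signals and from the value table, −0.56 on centring, −0.0054 with flagged spots kept, −0.012 with array weights, −0.047 without array 1 and −0.0056 without array 3, with a range over arrays left out of −0.047 to 0.082. Mt1 was −0.0080 from processed signals, −0.0077 from the value table, −0.38 on centring, −0.17 with array weights and −0.43 without array 3 (range over arrays left out −0.43 to 0.32). Mt2 was −0.42 on centring, −0.16 with array weights and −0.64 without array 3 (range −0.64 to 0.75). Centring also gave −0.052 for Usp7, −0.24 for Bnip3, −0.050 for Bckdha, −0.23 for Fstl1 and −0.37 for Fth1, and Errfi1 was 0.015 without array 1 (range −0.29 to 0.015). Bnip3 was called with robust moderation (0.70, adjusted p = 0.0159), array weights (0.72, adjusted p = 0.0314) and columns 1 to 80 of array 3 left out (0.70, adjusted p = 0.0438), over alternatives 0.0159 to 1. Bckdk was called with robust moderation (−0.46, adjusted p = 0.0407), over alternatives 0.0126 to 1. On centring Jun, Akt2, Trim63, Bckdk, Ski, Mlst8, Pdpk1 and Ccng1 were called too, with adjusted p of 0.0126 to 0.0392. The cause was not tested.

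Chosen after seeing the data were 3 alternatives. Loess on spots well above background called 1 gene and gave −0.13 for Eif4ebp1. Leaving out columns 1 to 80 of array 3 called 17 genes (13 higher, 4 lower) and gave −0.43 for Mt1. Loess on such spots without array 3 called 0 and gave −0.17 for Eif4ebp1, −0.42 for Mt1, −0.77 for Mt2, −0.070 for Fstl1 and −2.39 for Mettl21c (adjusted p = 0.122). The slide as a block was not run, since all arrays lie on 1 slide. The filter leaves genes near background with no ratio, and the offset of 50 understates the ratios of dim genes.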

Other observations

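Markers of other cells that soleus can hold were measured beside the 10 genes, and none was called. Of 11 macrophage and leukocyte markers 6 were tested, all with a negative mean ratio and a median log2 ratio of −0.24, and their summed processed signal ran from 7584 to 15340 in WT and from 6849 to 10540 in KO. Of 8 adipocyte markers 6 were tested, 5 positive, with a median of 0.13 and sums of 6445 to 8873 in WT and 9036 to 10360 in KO. The 3 tested of 6 red blood cell markers were all positive, with a median of 0.22 and sums of 11140 to 18360 in WT and 13780 to 32570 in KO. The 5 tested of 8 endothelial and smooth muscle markers had a median of −0.0014, and the 2 tested of 6 Schwann cell markers one of −0.07. The 10 tested of 13 muscle-defining genes had a median of 0.24, which was 0.10 with loess on bright spots.

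Probes printed on 10 spots show the precision within an array. Over 111 such probes with a median WT signal above 400 on arrays 1 and 2, the median SD of the log2 WT signal between spots was 0.163 on array 1, 0.204 on array 2 and 1.38 on array 3. For the Cdkn1a probe these SDs were 0.11, 0.18 and 1.94. Outlier flags were set on 536, 572 and 1002 spots of arrays 1 to 3.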
